A study of Rattus norvegicus with 15 samples.

Results

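The glutathione S-transferases are described here in primary rat hepatocytes exposed to naphthalene or to its hydroxylated analogs. The 10 members are Gstp1 (pi class), Gsta2, Gsta4 and Gsta5 (alpha class), Gstm1, Gstm2 and Gstm3 (mu class), Gstt1 (theta class), Gstk1 (kappa class) and Mgst1 (a microsomal transferase). They were chosen by gene symbol, through the transcript accession of each gene probe, out of 19803 genes tested. All 10 had at least 1 probe well above background on all 15 arrays, so the filter on dim probes removed none of them. The cells came from male rats of the Wister strain (so spelled in the labels) and were bought frozen. They were kept in culture for 24 h and then exposed for 24 h to 1 of 5 conditions, with 3 arrays in each. DMSO was the vehicle control. The test compounds were Naphthalene itself, 1-Naphthol, and the diols 1,5-Naphthalenediol and 2,7-Naphthalenediol, each at 30 µM. The series title places the work in a read-across of liver toxicity, in which data on one compound are used for structurally similar ones. The design text speaks of independent experiments for each condition, and the number of animals behind the cells is not given in the sources used here. Cells in culture after freezing are a limited model of the liver, and all groups share that handling.

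Glutathione transferases join the thiol of glutathione to electrophiles, such as the epoxides and quinones that cytochrome P450 and peroxidase enzymes make from naphthalene and naphthols. The conjugate is then exported and trimmed to a mercapturic acid. Alpha and mu class enzymes are abundant in normal rat hepatocytes, whereas Gstp1 is known to be low there, high in bile duct cells, and raised in preneoplastic rat liver lesions. Several of these genes are known targets of NRF2, the transcription factor of the antioxidant response, and some alpha class genes also respond to the aryl hydrocarbon receptor (AhR).

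The arrays lay on 2 slides, each with 1 scan. Slide 1 held all arrays of DMSO and 2,7-Naphthalenediol and 2 of 1,5-Naphthalenediol, and slide 2 held replicate 3 of 1,5-Naphthalenediol together with the full Naphthalene and 1-Naphthol groups. Slide and compound therefore cannot be told apart, except through 1,5-Naphthalenediol, where 1-Naphthol or Naphthalene is compared with DMSO or 2,7-Naphthalenediol. Comparisons of 1,5-Naphthalenediol with any other group are mixed with the slide in part. A second model with the slide as a term was fitted beside the model of the group means. Between 57.4% and 61% of gene spots were well above background on each array, no gene spot was saturated, and array number limits the precision. All 8 hepatocyte markers (among them Alb and Hnf4a) were well above background on all 15 arrays, with the log2 of their summed scaled intensities at 9.03 to 9.07 on the DMSO arrays and 8.92 to 9.03 on the exposed ones. Of 5 bile duct markers Epcam and Sox9 were well above background on all arrays, Krt7 on some, and Krt19 and Spp1 on none. Pecam1, Lyve1, Clec4f, Marco, Ptprc and Cd3e, markers of endothelial cells, macrophages and lymphocytes, were well above background on no array, while Vwf and Cd68, and Des, Acta2 and Rgs5 of stellate cells, were so on all 15.

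Sequence before a transcript start is shown for Gstp1 and Gsta2, the members that rose most, and for Mgst1. Mgst1 was called in no comparison in the model of the group means. RefSeq sequence of assembly GRCr8 covered 9 of the 10 members, and the 250 bases before the start were searched on both strands. The start is that of the promoter table, which need not be the outer edge of the gene. In the gene table of the same assembly, the windows of Gstp1, Gsta5 and Gstm1 lay wholly inside the gene's span, 5 others lay partly inside it, and that of Mgst1 lay outside. Capitals mark matches to TGACNNNGC (the core of the antioxidant response element), TGANTCA (an AP-1 site) or GCGTG (the core of the xenobiotic response element, which the AhR binds). A site of 1 motif can overlap that of another.

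Gstp1, chr1:210769706-210769955, minus strand: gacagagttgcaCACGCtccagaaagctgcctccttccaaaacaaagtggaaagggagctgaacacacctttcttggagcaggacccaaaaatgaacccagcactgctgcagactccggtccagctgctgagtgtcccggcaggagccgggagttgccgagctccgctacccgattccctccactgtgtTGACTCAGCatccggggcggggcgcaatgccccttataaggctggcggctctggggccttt
Gsta2, chr8:88077093-88077342, minus strand: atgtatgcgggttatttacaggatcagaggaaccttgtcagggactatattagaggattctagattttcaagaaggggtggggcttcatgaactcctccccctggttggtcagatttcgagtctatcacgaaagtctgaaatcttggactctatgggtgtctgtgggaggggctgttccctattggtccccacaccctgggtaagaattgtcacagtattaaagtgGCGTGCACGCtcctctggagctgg
Mgst1, chr4:172760680-172760929, plus strand: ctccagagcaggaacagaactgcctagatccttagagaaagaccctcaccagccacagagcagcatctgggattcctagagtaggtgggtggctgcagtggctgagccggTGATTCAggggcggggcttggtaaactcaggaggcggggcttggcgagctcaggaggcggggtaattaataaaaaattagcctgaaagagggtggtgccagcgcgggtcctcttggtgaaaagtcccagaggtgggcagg

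In Gstp1 the match TGACTCAGC began 61 bases before that start and satisfied both the antioxidant and the AP-1 motif, which overlap there. Of the 9 members with sequence 1 held TGACNNNGC, against 10.1% of 33469 windows of the same length in the table. Gsta2 held GCGTG 24 bases before its start and its reverse complement directly after it, at -19. GCGTG or its reverse complement was found in 3 of the 9 members (Gstp1, Gsta2 and Gsta4) and in 25.9% of all windows. The AP-1 letters stood in 2 of 9, Gstp1 and Mgst1, and in 6.34% of all windows. A match is a run of letters, and the arrays measured no binding.

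Gstp1, the pi class transferase, moved most among the members. On the DMSO arrays its brighter probe read 1889, 1987 and 1968 intensity units before scaling. With 2,7-Naphthalenediol it read 2496, 2406 and 2650, with 1,5-Naphthalenediol 9472, 9803 and 10070, with 1-Naphthol 3726, 4118 and 3701, and with Naphthalene 1939, 1983 and 1915. The 3 arrays of 1,5-Naphthalenediol were the highest, those of 1-Naphthol came next, and those of 2,7-Naphthalenediol lay above DMSO, with no overlap. The intensities with Naphthalene lay within the DMSO range, and after scaling these arrays stood 0.10, 0.06 and 0.13 above the DMSO mean on the log2 scale, just above the highest DMSO array at 0.05. Levels below are on the log2 scale relative to the array's 75th percentile, and changes are log2 differences ± standard error. Against DMSO Gstp1 rose by 2.29 ± 0.0423 with 1,5-Naphthalenediol, which is 4.88-fold (95% interval 4.58 to 5.20, limma adjusted p = 1.6e-11). It rose by 0.92 ± 0.0423 with 1-Naphthol (1.90-fold, adjusted p = 3.3e-07) and by 0.35 ± 0.0423 with 2,7-Naphthalenediol (1.27-fold, adjusted p = 0.0014). With Naphthalene the change of 0.09 ± 0.0423 did not pass the test (adjusted p = 0.12). In rank of change it was number 11 from the top among 19803 genes with 1,5-Naphthalenediol, 159 with 1-Naphthol and 934 with 2,7-Naphthalenediol.

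A second Gstp1 probe gave nearly the same profile. Each of the 2 probes was printed as 10 spots on every array, and the standard deviation among spots was at most 0.0775 on the log2 scale. Its changes were 0.34 for 2,7-Naphthalenediol, 2.26 for 1,5-Naphthalenediol, 0.96 for 1-Naphthol and 0.08 for Naphthalene. The order of the groups was the same on both probes. As Gstp1 also marks bile duct cells, the level of Epcam and Sox9, as the log2 of their summed scaled intensities, is given beside it. It lay at -0.75 to -0.62 on the DMSO arrays and at -0.96 to -0.94 with 1,5-Naphthalenediol. With 2,7-Naphthalenediol it was -1.11 to -0.98, with 1-Naphthol -1.13 to -0.86 and with Naphthalene -0.71 to -0.63. With 1,5-Naphthalenediol Epcam fell by 0.32 (adjusted p = 0.0083) while Sox9 stood at 0.07 (adjusted p = 0.71), so the lower sum there was that of Epcam. Epcam also fell with 2,7-Naphthalenediol and 1-Naphthol, and Sox9 rose by 0.39 with 1-Naphthol (adjusted p = 0.0322) and 0.36 with Naphthalene (adjusted p = 0.0354). The part of these markers' cells in the Gstp1 values was not tested. In cells measured in bulk, a change in the share of a cell type and a change in RNA per cell cannot be told apart.

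**Figure D1:**
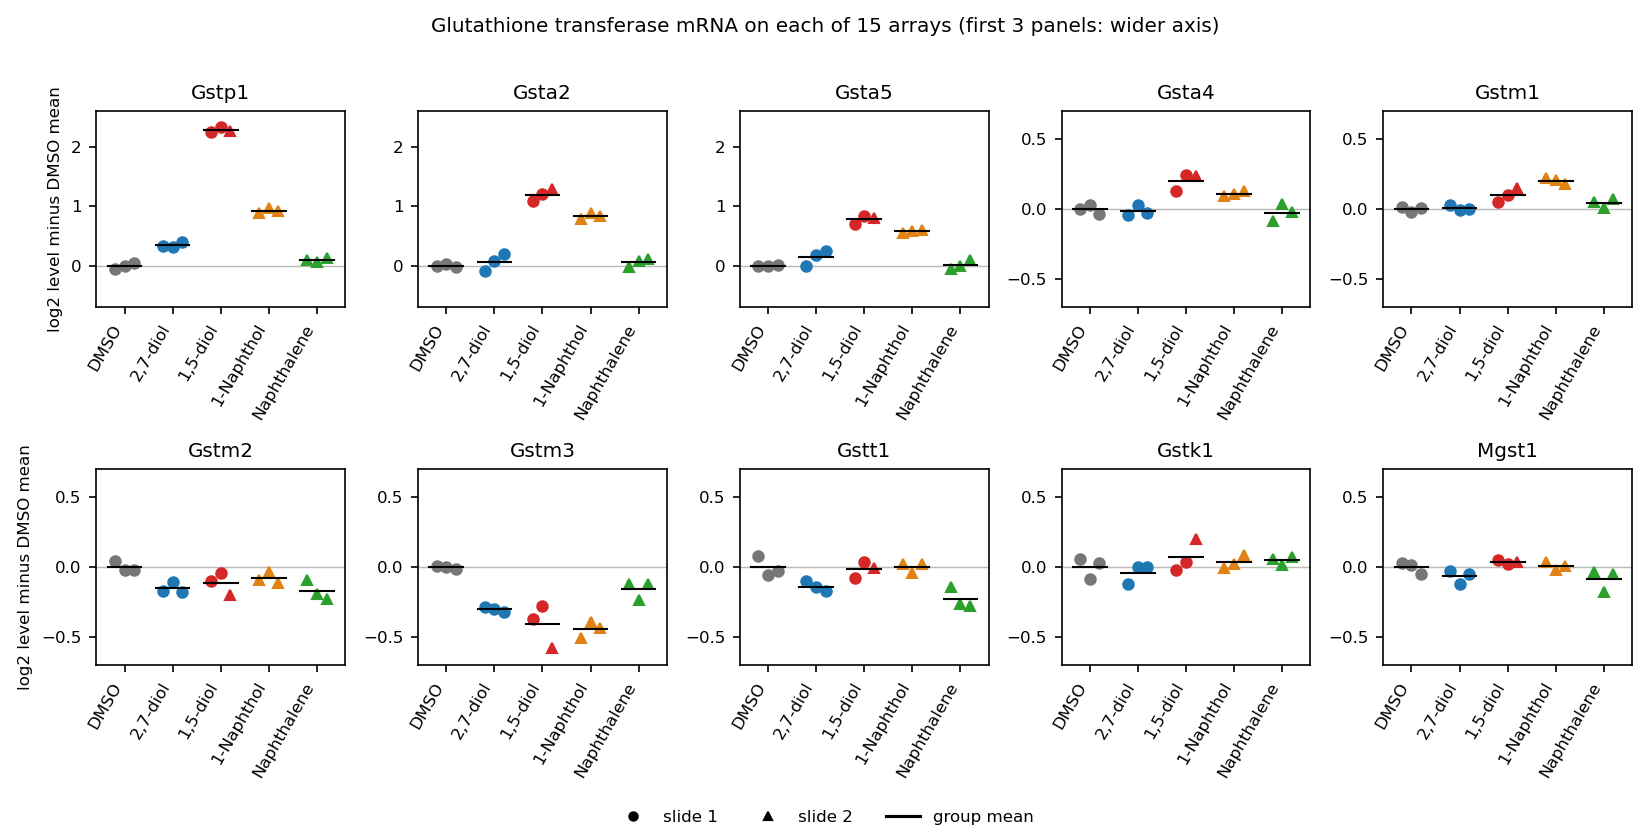
Each panel plots 1 glutathione transferase, with its log2 level minus the DMSO mean on the vertical axis and the 5 groups on the horizontal axis; points are single arrays (circles slide 1, triangles slide 2) and bars are group means of 3 arrays. Gstp1, Gsta2 and Gsta5 stand high with 1,5-Naphthalenediol and 1-Naphthol, while the other 7 members, drawn on a narrower axis, stay within 0.58 of the DMSO mean.

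Among the alpha class, Gsta2 followed the same order of compounds for its larger changes. Gsta2 is one of the main alpha transferases of rat liver. Its probe read 13370, 13820 and 12750 intensity units with DMSO, 28680, 30350 and 35060 with 1,5-Naphthalenediol, and 23920, 26520 and 23780 with 1-Naphthol. With 2,7-Naphthalenediol it read 12670, 13900 and 15710, and with Naphthalene 12250, 13770 and 12920. The arrays of 1,5-Naphthalenediol and 1-Naphthol were above all others, and those of 2,7-Naphthalenediol and Naphthalene overlapped DMSO. Gsta2 rose by 1.19 ± 0.0714 with 1,5-Naphthalenediol (2.28-fold, adjusted p = 8.8e-07) and by 0.83 ± 0.0714 with 1-Naphthol (1.78-fold, adjusted p = 8.5e-05). The changes of 0.06 ± 0.0714 with 2,7-Naphthalenediol and 0.06 ± 0.0714 with Naphthalene did not pass (adjusted p = 0.62 and 0.58), with 95% intervals from -0.10 to 0.21 for both.

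Gsta5, an alpha transferase known for its activity on aflatoxin epoxide, had the levels 0.70, 0.84 and 0.81 above the DMSO mean on the arrays of 1,5-Naphthalenediol and 0.55, 0.58 and 0.59 on those of 1-Naphthol. Its DMSO arrays lay within 0.01 of their mean. The first array of 2,7-Naphthalenediol lay at -0.01 and the other two at 0.19 and 0.25, so that group overlapped DMSO. Gsta5 rose by 0.78 ± 0.063 with 1,5-Naphthalenediol (1.72-fold, adjusted p = 1e-05) and by 0.58 ± 0.063 with 1-Naphthol (1.49-fold, adjusted p = 0.00041). The value for 2,7-Naphthalenediol, 0.14 ± 0.063, did not pass (adjusted p = 0.16), nor did 0.02 ± 0.063 for Naphthalene (adjusted p = 0.88). Without the first array of 2,7-Naphthalenediol, its change became 0.22 and passed (adjusted p = 0.037). With quantile normalization it was 0.226 and also passed (adjusted p = 0.045).

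Gsta4, which conjugates the lipid peroxidation product hydroxynonenal, moved less. Its arrays of 1,5-Naphthalenediol lay 0.13, 0.25 and 0.23 above the DMSO mean, those of 1-Naphthol 0.10, 0.11 and 0.13, and both groups were above the 3 DMSO arrays. It rose by 0.20 ± 0.0434 with 1,5-Naphthalenediol (adjusted p = 0.0062), whereas 0.11 ± 0.0434 with 1-Naphthol did not pass (adjusted p = 0.086). With normexp on median signals the 1-Naphthol value was 0.217 and passed (adjusted p = 0.011). The call with 1,5-Naphthalenediol ended when the DMSO and 1,5-Naphthalenediol arrays were fitted alone (adjusted p = 0.056). Values for 2,7-Naphthalenediol and Naphthalene were -0.01 and -0.02, with overlapping arrays (adjusted p = 0.86 and 0.71).

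Changes in the mu class were smaller than those of Gsta2 and Gsta5 and went in both directions. Gstm1, a major mu transferase of rat liver, rose by 0.20 ± 0.035 with 1-Naphthol (1.15-fold, adjusted p = 0.0035), its arrays lying 0.22, 0.21 and 0.18 above the DMSO mean. With 1,5-Naphthalenediol it was 0.05, 0.10 and 0.15 above that mean, a change of 0.10 ± 0.035 that did not pass (adjusted p = 0.063). That change passed with quantile normalization (0.161, adjusted p = 0.0046) and without 1,5-Naphthalenediol 1 (0.124, adjusted p = 0.042). A second Gstm1 probe put the change with 1-Naphthol at 0.07 (adjusted p = 0.27), so that the call rests on the brighter probe. The brighter and the second probe gave 0.01 and -0.04 for 2,7-Naphthalenediol, and 0.04 and -0.06 for Naphthalene, none of which passed.

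Gstm3, another mu transferase, was lower in 3 of the compounds. The brighter probe lay at -0.28, -0.30 and -0.32 relative to the DMSO mean with 2,7-Naphthalenediol and at -0.37, -0.28 and -0.58 with 1,5-Naphthalenediol. With 1-Naphthol it lay at -0.50, -0.39 and -0.44, and with Naphthalene at -0.12, -0.23 and -0.12. All 12 exposed arrays were below the 3 DMSO arrays, and the lowest was the one array of 1,5-Naphthalenediol on slide 2. Gstm3 fell by 0.30 ± 0.0645 with 2,7-Naphthalenediol (adjusted p = 0.016), by 0.41 ± 0.0645 with 1,5-Naphthalenediol (adjusted p = 0.00099) and by 0.44 ± 0.0645 with 1-Naphthol (adjusted p = 0.0018). The call for 2,7-Naphthalenediol ended without its array 2 (adjusted p = 0.053) or array 3 (adjusted p = 0.054). A second Gstm3 probe gave -0.21 for 2,7-Naphthalenediol and -0.23 for 1,5-Naphthalenediol (adjusted p = 0.030 and 0.0087), but -0.05 for 1-Naphthol (adjusted p = 0.49) and 0.10 for Naphthalene (adjusted p = 0.18). On that probe the changes with the diols were called and those with 1-Naphthol and Naphthalene were not.

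Gstm2, the third mu member, fell by 0.17 ± 0.049 with Naphthalene (adjusted p = 0.027), its arrays lying at -0.09, -0.19 and -0.23. The values with the other compounds were -0.15 for 2,7-Naphthalenediol (adjusted p = 0.066), -0.11 for 1,5-Naphthalenediol (adjusted p = 0.12) and -0.08 for 1-Naphthol (adjusted p = 0.26). The call with Naphthalene ended in 5 of the 6 fits that left out 1 of its arrays or 1 DMSO array (adjusted p = 0.083, 0.054 and 0.057 without DMSO 1, 2 or 3, and 0.075 and 0.073 without Naphthalene 2 or 3). Alpha class transcripts resemble each other, as do those of the mu class, and the files hold no probe sequences, so how far a probe takes up a related transcript was not tested.

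**Figure D2:**
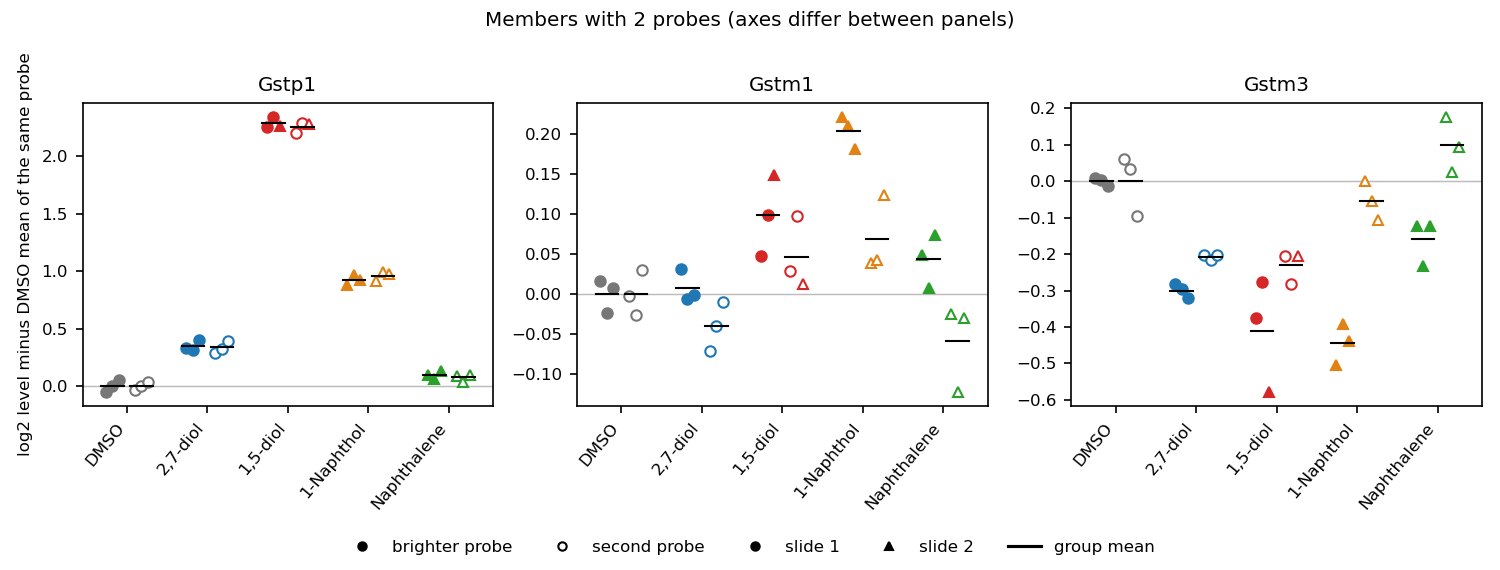
The 3 members with 2 probes, Gstp1, Gstm1 and Gstm3, are plotted as log2 level minus the DMSO mean of the same probe for each group; filled points are the brighter probe, open points the second one, circles slide 1, triangles slide 2, bars means of 3 arrays, and the vertical axes differ between panels. The pairs lie together for Gstp1 and apart for Gstm3, whose means with 1-Naphthol are -0.44 and -0.05.

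Gstt1, a theta transferase that acts on small halogenated molecules, fell by 0.23 ± 0.0503 with Naphthalene (1.17-fold lower, adjusted p = 0.0088). Its Naphthalene arrays lay at -0.15, -0.26 and -0.28 relative to the DMSO mean and its DMSO arrays at 0.08, -0.05 and -0.03, with no overlap. The values were -0.14 for 2,7-Naphthalenediol (adjusted p = 0.09), -0.02 for 1,5-Naphthalenediol (adjusted p = 0.86) and 0.00 for 1-Naphthol (adjusted p = 1.0). Gstk1, the kappa transferase of mitochondria and peroxisomes, and Mgst1, a membrane-bound transferase that also reduces lipid peroxides, were called in none of the 10 comparisons of this model at the threshold. Against DMSO the changes of Gstk1 ran from -0.04 to 0.07 and those of Mgst1 from -0.09 to 0.04. Their 95% intervals with 1,5-Naphthalenediol, -0.06 to 0.20 and -0.06 to 0.13, leave room for a change of up to 0.20 in Gstk1. In 1,5-Naphthalenediol against Naphthalene, Mgst1 became a call with quantile normalization (0.139, adjusted p = 0.043). It also did so there with the replicate number as a block (0.123, adjusted p = 0.047).

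Counted over the family, limma's F test over the 5 groups called 7 of 10 members (all but Gstm2, Gstk1 and Mgst1), beside 44.7% of all genes tested. With 2,7-Naphthalenediol 1 member rose and 1 fell, beside 6.2% and 4.84% of all genes. With 1,5-Naphthalenediol 4 rose (Gstp1, Gsta2, Gsta5 and Gsta4) and 1 fell (Gstm3), beside 9.41% and 12.7%. With 1-Naphthol 4 rose (Gstp1, Gsta2, Gsta5 and Gstm1) and 1 fell (Gstm3), beside 10.2% and 10.6%. With Naphthalene 0 rose and 2 fell (Gstm2 and Gstt1), beside 12.5% and 12.6%; at an unadjusted p under 0.05 in limma 1 rose (Gstp1) and 3 fell. The share of members that rose was thus above that of all genes with 1,5-Naphthalenediol and 1-Naphthol. As the members were chosen with earlier results of these data known, this describes the 10 genes and is not a test of the family. In each comparison 1 or 2 members of 10 fell, a share too small to set apart from that of all genes. The median change of the 10 members was -0.03 for 2,7-Naphthalenediol, 0.09 for 1,5-Naphthalenediol, 0.07 for 1-Naphthol and 0.00 for Naphthalene, beside -0.02, -0.01, 0.00 and 0.00 for all genes. With the slide as a term it was 0.05 for 1,5-Naphthalenediol, 0.05 for 1-Naphthol and -0.06 for Naphthalene.

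**Figure D3:**
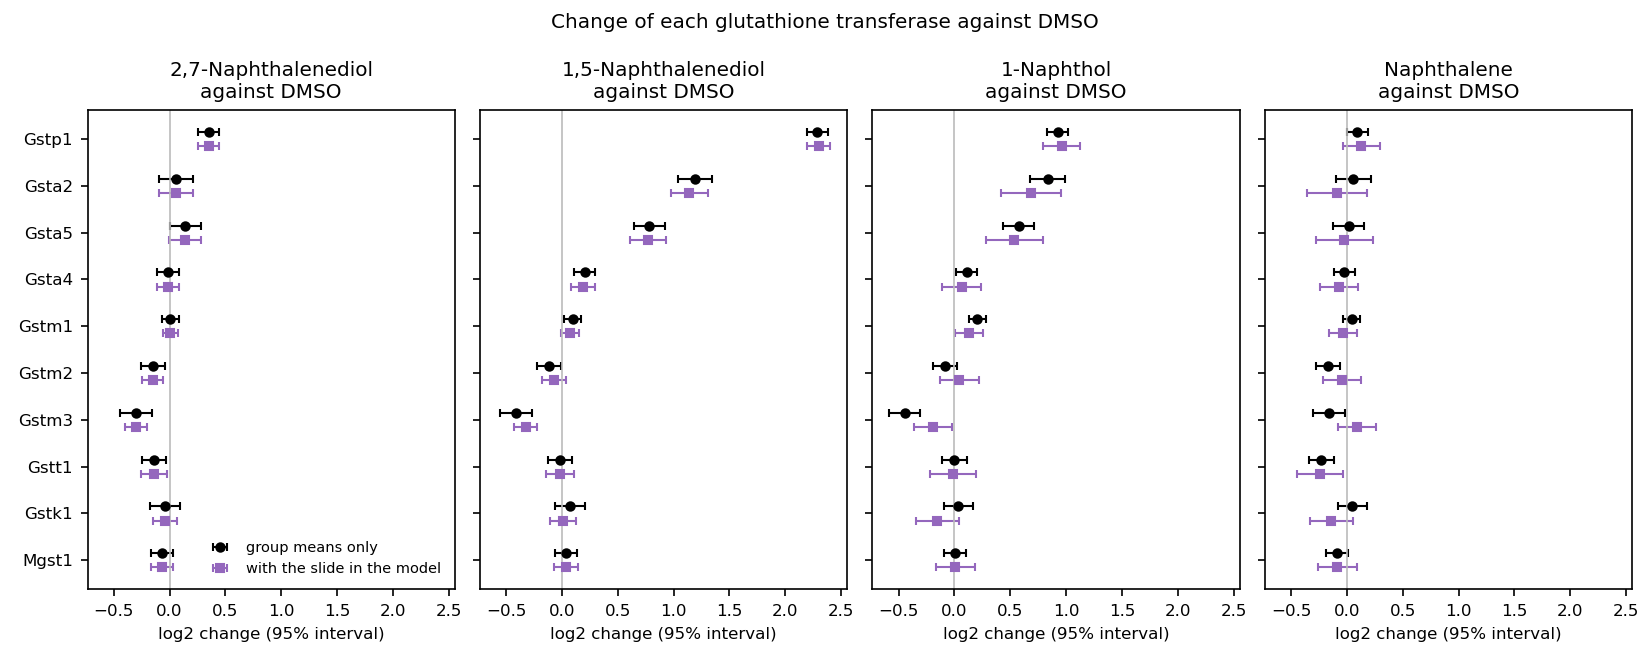
Log2 change against DMSO with its 95% interval for each of the 10 members and 4 compounds, with black circles for the model of the group means and purple squares for the model with the slide. Gstp1 and Gsta2 stay above 0 with 1,5-Naphthalenediol and 1-Naphthol in both models, and intervals for 1-Naphthol and Naphthalene widen when the slide is in the model.

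With the slide in the model, 1-Naphthol raised 2 members, Gstp1 by 0.96 ± 0.0765 (adjusted p = 0.00062) and Gsta2 by 0.69 ± 0.122 (adjusted p = 0.031), and lowered 0 (1 at an unadjusted p under 0.05, Gstm3), beside 0.545% of all genes higher and 0.581% lower. Gsta5 stood at 0.54 ± 0.117 and just missed the threshold (adjusted p = 0.054). Gstm1 moved to 0.13 (adjusted p = 0.26) and Gstm3 to -0.19 (adjusted p = 0.22), so both calls ended. With Naphthalene 0 members were called in that limma model, beside 0.51% of all genes higher and 0.217% lower; Gstm2 stood at -0.04 (adjusted p = 0.79) and Gstt1, the 1 member at an unadjusted p under 0.05, at -0.24 (adjusted p = 0.19). The changes with 1,5-Naphthalenediol, which has arrays on both slides, kept their calls, with Gstp1 at 2.30, Gsta2 at 1.14, Gsta5 at 0.77, Gsta4 at 0.19 and Gstm3 at -0.33. Gstm2 with 2,7-Naphthalenediol became a call at -0.15 (adjusted p = 0.04).

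The compounds had equal dose and exposure time, and 6 pairs of them were compared, with p-values adjusted over all genes within a pair and not over the pairs. The diols differ in the positions of their hydroxyl groups. Between them, 1,5-Naphthalenediol had 4 members higher than 2,7-Naphthalenediol and 0 lower (0 also at an unadjusted p under 0.05), beside 6.62% and 8.1% of all genes. Gstp1 was higher by 1.94 ± 0.0423 (3.83-fold, adjusted p = 1.2e-10), Gsta2 by 1.13 ± 0.0714 (adjusted p = 2.7e-06), Gsta5 by 0.64 ± 0.063 (adjusted p = 7.2e-05) and Gsta4 by 0.22 ± 0.0434 (adjusted p = 0.0064). The Gsta4 call ended with slide 1 arrays only (adjusted p = 0.0595) or with these groups fitted alone (adjusted p = 0.0711). For Gstm3 the difference of -0.11 did not pass (adjusted p = 0.29, 95% interval -0.25 to 0.03).

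1-Naphthol carries a hydroxyl group that Naphthalene lacks, and both lay on slide 2. There 5 members were higher with 1-Naphthol and 1 lower, beside 1.04% and 1.4% of all genes. Gstp1 was 0.83 ± 0.0423 higher (1.78-fold, adjusted p = 1.2e-06), Gsta2 0.78 ± 0.0714 (adjusted p = 0.00022) and Gsta5 0.56 ± 0.063 (adjusted p = 0.001), ranking 30, 37 and 114 from the top of 19803 genes. Gstm1 was higher by 0.16 (adjusted p = 0.035), Gstt1 higher by 0.23 (adjusted p = 0.037) and Gstm3 lower by 0.29 (adjusted p = 0.041). These last calls ended in 5, 5 and 6 of the 6 fits that left out 1 array of either compound. Without single arrays Gstm1 reached adjusted p = 0.13, Gstt1 0.13 and Gstm3 0.16, and all of these values were highest without 1-Naphthol 1. The calls of Gstp1, Gsta2 and Gsta5 stayed in each of those fits.

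1,5-Naphthalenediol has a further hydroxyl group beside that of 1-Naphthol. Gstp1 was higher with it by 1.36 ± 0.0423 (2.57-fold, adjusted p = 9.9e-09) and Gsta2 by 0.36 ± 0.0714 (1.28-fold, adjusted p = 0.012), and 0 members were lower (1 at an unadjusted p under 0.05, Gstm1), beside 4.36% and 4.8% of all genes. Gsta5 differed by 0.21 ± 0.063, which did not pass (adjusted p = 0.059, 95% interval 0.07 to 0.34). That difference passed with quantile normalization (0.248, adjusted p = 0.034) and with the replicate number as a block (0.207, adjusted p = 0.033). The Gsta2 call ended when only those groups were fitted (limma adjusted p = 0.055). On slide 2 alone, which held 1 array of 1,5-Naphthalenediol, the Gsta2 difference was 0.455. Against Naphthalene, 1,5-Naphthalenediol had 5 members higher (Gstp1 by 2.19, Gsta2 by 1.13, Gsta5 by 0.77, Gsta4 by 0.23 and Gstt1 by 0.21) and 1 lower (Gstm3, -0.25), beside 11.3% and 13.7% of all genes. The Gstm3 call there ended without Naphthalene 1 (adjusted p = 0.053) and with no filter on dim probes (adjusted p = 0.058). The calls of Gsta4, Gstt1 and Gstm3 ended with these groups fitted alone (limma adjusted p = 0.083, 0.097 and 0.14). On slide 2 alone, with 1 array of 1,5-Naphthalenediol, their differences were 0.259, 0.22 and -0.419. The Gstt1 call ended also with the slide as a term (0.22, adjusted p = 0.091).

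Between 2,7-Naphthalenediol and 1-Naphthol, 4 members were lower with the diol and 0 higher (1 at an unadjusted p under 0.05, Gstm3), beside 8.49% and 6.23% of all genes. Gstp1 was lower by 0.57, Gsta2 by 0.78, Gsta5 by 0.43 and Gstm1 by 0.20 (adjusted p = 4.9e-05, 0.00026, 0.0038 and 0.008). With the slide in the model only Gstp1 of these stayed a call (-0.61, adjusted p = 0.025), 1 member lower beside 0.0555% of all genes, and 0 higher, also before adjustment, beside 0.0252%. Against Naphthalene 2,7-Naphthalenediol had 1 member higher, Gstp1 by 0.26 ± 0.0423 (adjusted p = 0.0067), and 0 lower (1 at an unadjusted p under 0.05, Gstm3), beside 6.32% and 9.5%. With the slide in the model its 0.22 did not pass (adjusted p = 0.41), and 0 members were called (2 at an unadjusted p under 0.05, Gstp1 and Gstm3), beside 0.0101% of all genes in either direction. In Gsta2 these last compounds differed by 0.00, with a 95% interval from -0.16 to 0.16.

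**Figure D4:**
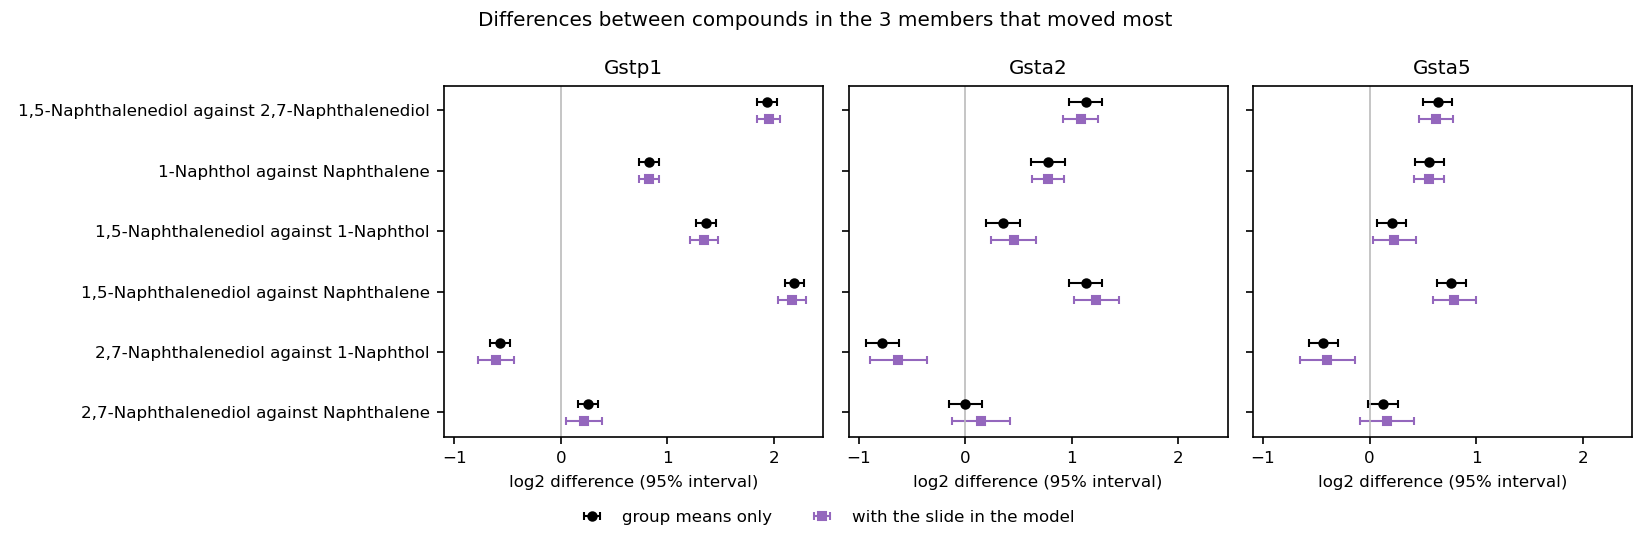
Log2 differences between pairs of compounds with 95% intervals for Gstp1, Gsta2 and Gsta5, the first-named compound minus the second, with black circles for the model of the group means and purple squares for the model with the slide. The differences between 1,5-Naphthalenediol and each other compound are largest in Gstp1, at 1.36 to 2.19.

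Of 21 other glutathione transferase and related genes 13 were tested. With 1,5-Naphthalenediol 3 rose and 2 fell, with 1-Naphthol 3 rose and 0 fell (3 at an unadjusted p under 0.05), with 2,7-Naphthalenediol 1 rose and 1 fell, and with Naphthalene 1 rose and 1 fell. The shares of all genes to set beside the counts of this list and the next ones, higher and lower, were 6.2% and 4.84% with 2,7-Naphthalenediol, 9.41% and 12.7% with 1,5-Naphthalenediol, 10.2% and 10.6% with 1-Naphthol, and 12.5% and 12.6% with Naphthalene. They were 0.545% and 0.581% with 1-Naphthol and 0.51% and 0.217% with Naphthalene when the slide was a term. Gsta3, an alpha transferase, rose by 0.51 ± 0.0462 with 1,5-Naphthalenediol (adjusted p = 2.6e-05), by 0.33 with 1-Naphthol (adjusted p = 0.0015) and by 0.17 with 2,7-Naphthalenediol (adjusted p = 0.038), and its value with Naphthalene was 0.03 (adjusted p = 0.64). Gsta1, a further alpha transferase, rose by 0.21 with 1-Naphthol and 0.16 with 1,5-Naphthalenediol (adjusted p = 0.0095 and 0.03). Gsta6 went the other way, falling by 0.25 with 1,5-Naphthalenediol and by 0.16 with 2,7-Naphthalenediol (adjusted p = 0.00077 and 0.022). Mgst2, a microsomal transferase, rose by 0.15 with 1,5-Naphthalenediol (adjusted p = 0.025). Gstm5 (mu class) fell by 0.19 with 1,5-Naphthalenediol and 0.17 with Naphthalene, and Gstz1 (zeta class) rose by 0.14 with 1-Naphthol and 0.14 with Naphthalene. These last genes were picked for naming after their values were seen. With the slide in the limma model 0 of the 13 were called with 1-Naphthol or Naphthalene (3 and 2 at an unadjusted p under 0.05), Gsta3 standing at 0.27 with 1-Naphthol (adjusted p = 0.12), and Gsta1 with 1,5-Naphthalenediol was at 0.12 (adjusted p = 0.088). The median of the 13 was 0.08 with 1,5-Naphthalenediol and -0.02 with 1-Naphthol, beside -0.01 and 0.00 for all genes. The median with 1-Naphthol turned to 0.08 with the slide as a term.

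The supply of glutathione and of NADPH, which keeps it reduced, was followed in 15 of 16 listed genes. With 2,7-Naphthalenediol 5 rose and 0 fell, with 1,5-Naphthalenediol 4 and 0, with 1-Naphthol 3 and 0, and with Naphthalene 0 and 1. At an unadjusted p under 0.05 in limma, the counts were 6 and 2, 7 and 2, 4 and 1, and 1 and 3. Slc7a11, the cystine importer, rose by 0.61 with 2,7-Naphthalenediol and by 0.59 with 1-Naphthol (adjusted p = 0.0019 and 0.0013), while its 0.13 with 1,5-Naphthalenediol did not pass (adjusted p = 0.26). Me1, the malic enzyme, and Pgd rose by 0.23 and 0.28 with 1,5-Naphthalenediol (adjusted p = 0.00077 and 0.014). Slc7a11 was 0.46 lower with 1,5-Naphthalenediol than with 1-Naphthol (adjusted p = 0.005), where Gstp1 was higher. In that pair 2 of the list were higher and 2 lower in the model of the group means, beside 4.36% and 4.8% of all genes. With the slide as a term 1 was higher and 1 lower. Other called genes, named after their values were seen, were Ggct, Oplah and Chac1 (higher with 2,7-Naphthalenediol), Ggct (higher with 1,5-Naphthalenediol), Me1 (higher with 1-Naphthol) and Cth (lower with Naphthalene). The median change of the 15 was 0.08 for 2,7-Naphthalenediol, 0.13 for 1,5-Naphthalenediol, 0.10 for 1-Naphthol and -0.02 for Naphthalene. Once the slide was in the limma model, 2 of the 15 rose with 1-Naphthol, Slc7a11 among them, and 0 changed with Naphthalene (2 at an unadjusted p under 0.05). The medians with these compounds were then 0.16 and 0.05, the latter with its sign turned.

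Export of conjugates and the trimming to mercapturates were covered by 14 of 18 listed genes. With 1,5-Naphthalenediol 6 rose and 3 fell, with 1-Naphthol 3 and 2, and with 2,7-Naphthalenediol and Naphthalene 2 and 2 each. Nat8, which acetylates the cysteine conjugate, rose by 0.86 ± 0.134 with 1,5-Naphthalenediol (adjusted p = 0.00093), and Abcc3, an efflux pump, by 0.49 (adjusted p = 0.00084). Ggt1, which removes the glutamate, rose with all 4 compounds, by 0.22 to 0.50 (adjusted p from 0.00036 to 0.013), and Cndp2, a dipeptidase, fell with all 4, by 0.20 to 0.42 (adjusted p from 3.4e-05 to 0.011). In the model with the slide neither Ggt1 nor Cndp2 passed with 1-Naphthol (adjusted p = 0.058 and 0.073) or Naphthalene (adjusted p = 0.086 and 0.18). Named after their values were seen, Abcc4 rose with all 4 compounds and Abcc2 with 1,5-Naphthalenediol and 1-Naphthol, both efflux pumps, and Acy3 rose with 1,5-Naphthalenediol. Anpep fell with 1,5-Naphthalenediol, 1-Naphthol and Naphthalene, Lap3 with 2,7-Naphthalenediol and Abcc1 with 1,5-Naphthalenediol. With the slide as a term Abcc4 was the 1 gene of the 14 called with 1-Naphthol or Naphthalene, so that the calls of Abcc2 and Anpep there ended, as did those of Anpep and Abcc1 with 1,5-Naphthalenediol. The median change of the 14 was 0.04 with 1,5-Naphthalenediol and 0.01 with 1-Naphthol, and with the slide as a term 0.06 and 0.14.

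Of 16 glutathione peroxidases, glutaredoxins and peroxiredoxins, all tested, 3 rose and 5 fell with 1,5-Naphthalenediol, 1 and 4 with 1-Naphthol, 0 and 0 with 2,7-Naphthalenediol (0 and 2 at an unadjusted p under 0.05 in limma) and 1 and 2 with Naphthalene. Gpx2 and Prdx6 rose by 0.37 and 0.26 with 1,5-Naphthalenediol (adjusted p = 0.00021 and 0.003), Glrx by 0.22 (adjusted p = 0.015), and Gpx1 fell by 0.27 (adjusted p = 0.00088). The others called, named after their values were seen, were all lower, Gpx4 and Prdx4 with 1,5-Naphthalenediol, Gpx3 and Gpx8 with 1-Naphthol, and Gpx7 and Prdx3 with 1,5-Naphthalenediol, 1-Naphthol and Naphthalene. Glrx also rose with 1-Naphthol and Gpx2 with Naphthalene. The median change of the 16 was -0.08 with 1,5-Naphthalenediol and -0.05 with 1-Naphthol, and -0.08 and -0.03 with the slide as a term. None of the 16 (0) was called with 1-Naphthol or Naphthalene once the slide was in the limma model (2 and 1 at an unadjusted p under 0.05).

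Enzymes that oxidise naphthalene or compete for its products were measured for 17 of 19 listed genes. With both 2,7-Naphthalenediol and 1-Naphthol 6 rose and 1 fell, with 1,5-Naphthalenediol 6 rose and 4 fell, and with Naphthalene 0 rose and 1 fell (1 and 5 at an unadjusted p under 0.05 in limma). Nqo1, the quinone reductase, rose by 1.63 ± 0.0595 with 1,5-Naphthalenediol, 1.24 with 1-Naphthol and 0.41 with 2,7-Naphthalenediol (adjusted p = 8.8e-09, 3.6e-07 and 0.0033). Akr1b8, an aldo-keto reductase, rose by 1.70, 0.51 and 0.22 in the same order of compounds (adjusted p = 5.8e-10, 0.00014 and 0.016). Cyp1a1, the AhR target that oxidises aromatic rings, rose by 2.22 with 1,5-Naphthalenediol and 2.39 with 1-Naphthol (adjusted p = 4e-07 and 5.2e-07), and by 0.61 with 2,7-Naphthalenediol (adjusted p = 0.011). Aldh3a1, an aldehyde dehydrogenase, was well above background on no DMSO array. Its measured signal rose 19.0-fold with 1-Naphthol, 12.0-fold with 1,5-Naphthalenediol and 4.27-fold with 2,7-Naphthalenediol (limma adjusted p = 7.1e-10, 9e-10 and 3.1e-06). These folds are estimates over a DMSO signal that was not well above background, so their size is uncertain. Against 1-Naphthol, 1,5-Naphthalenediol had Akr1b8 higher by 1.18, Nqo1 higher by 0.39 and Aldh3a1 lower by 0.67 (adjusted p = 4.1e-08, 0.0023 and 0.0029), while Cyp1a1 differed by -0.16, which did not pass (adjusted p = 0.41, 95% interval -0.43 to 0.10). These values are from the model of the group means, where 3 of the list were higher and 4 lower, beside 4.36% and 4.8% of all genes. With the slide as a term 2 were higher and 1 lower. Genes that fell, named after their values were seen, included Sult1a1 with both diols and Nqo2 and Ugt1a6 with 1,5-Naphthalenediol. With the slide as a term 5 rose with 1-Naphthol (Cyp1a1, Nqo1, Aldh3a1, Akr1b8 and Akr7a3) and 0 fell (1 at an unadjusted p under 0.05), and 0 were called with Naphthalene (2 lower at an unadjusted p under 0.05). The median change of the 17 was 0.06 with 1,5-Naphthalenediol and -0.04 with 1-Naphthol, and the latter turned to 0.03 with the slide as a term.

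Regulators of transferase genes were tested for 16 of 18 listed. With 2,7-Naphthalenediol 4 rose and 0 fell (6 and 0 at an unadjusted p under 0.05 in limma), with 1,5-Naphthalenediol 6 and 1, with 1-Naphthol 9 and 1, and with Naphthalene 6 and 1. Cebpb, a liver transcription factor, rose with all 4 compounds by 0.20 to 0.31 (adjusted p from 0.00092 to 0.016). Mafg, a partner of NRF2, rose by 0.35 with 2,7-Naphthalenediol, 0.26 with 1-Naphthol and 0.37 with Naphthalene (adjusted p = 0.0072, 0.015 and 0.0034). Nr1i3, the nuclear receptor CAR, rose by 0.44 with 1,5-Naphthalenediol, 0.41 with 1-Naphthol and 0.34 with Naphthalene (adjusted p = 0.0058, 0.012 and 0.022). With the slide as a term 2 of the 16 were called higher with 1-Naphthol (Ahr and Cebpb) and 1 with Naphthalene (Cebpb), so that the calls of Mafg and Nr1i3 with these compounds ended and Cebpb kept its own (adjusted p = 0.045 and 0.035). Jun rose with 2,7-Naphthalenediol, and Maff was the gene that fell with 1,5-Naphthalenediol, 1-Naphthol and Naphthalene, the last 2 calls ending with the slide as a term. Jun, Maff and Ahr were named after their values were seen. The median change of the 16 was 0.11 for 2,7-Naphthalenediol, 0.10 for 1,5-Naphthalenediol, 0.18 for 1-Naphthol and 0.09 for Naphthalene. Naphthalene raised no transferase of the 10, and its called changes among these regulators are those of the model of the group means. With the slide as a term only Cebpb of them was called with Naphthalene. A link between the regulators' mRNA and the transferases was not tested.

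**Figure D5:**
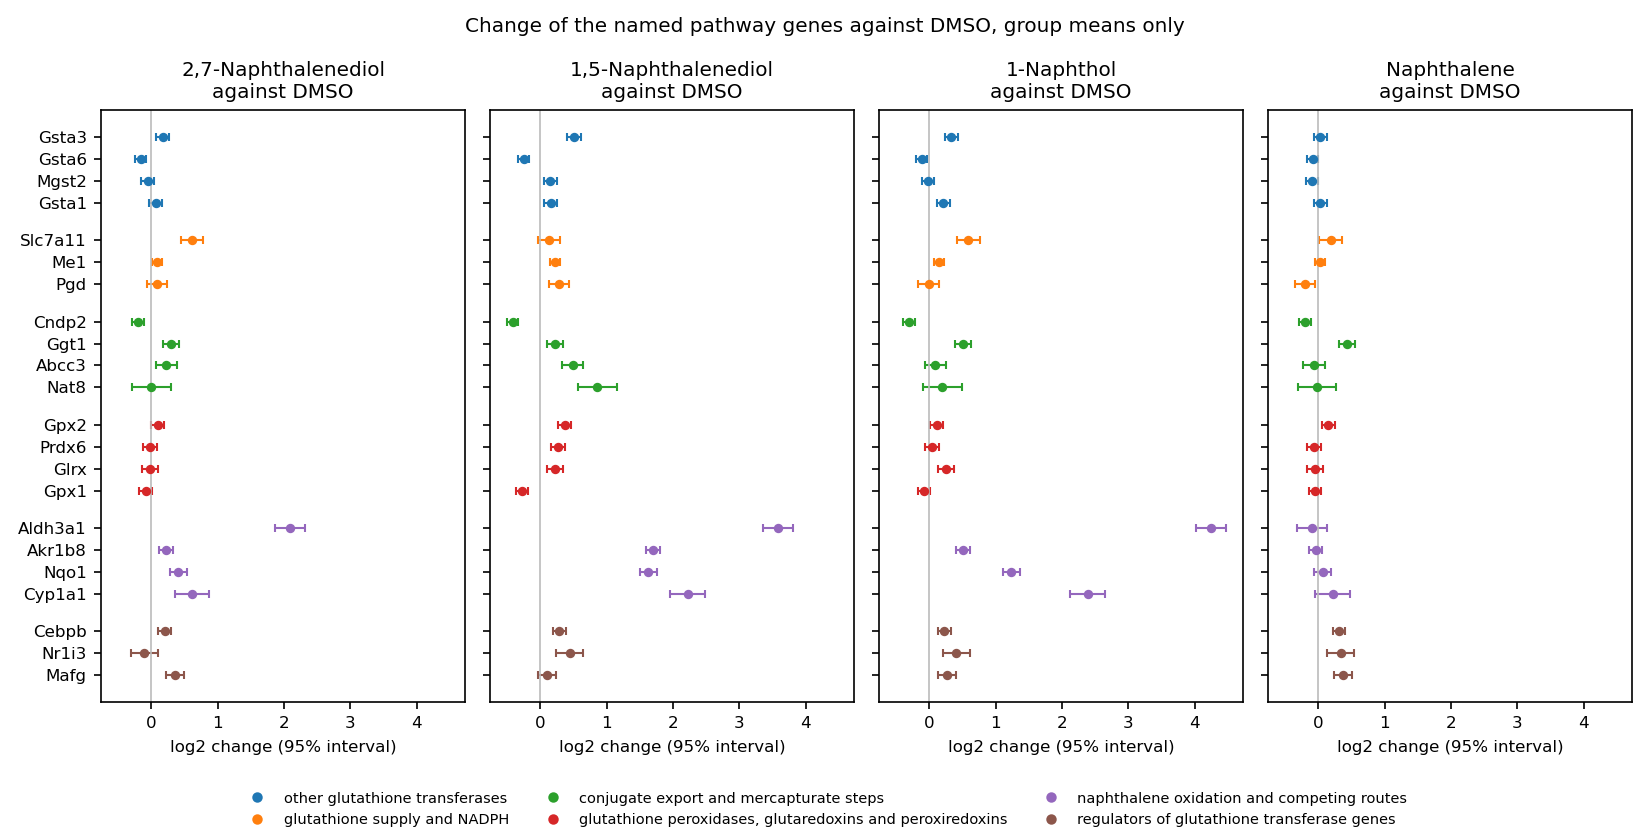
Log2 change against DMSO with 95% interval in the model of the group means for the genes described from each pathway list, 1 panel a compound and 1 colour a list. Aldh3a1, Nqo1 and Cyp1a1 stand far to the right with 1,5-Naphthalenediol and 1-Naphthol. Akr1b8 does so with 1,5-Naphthalenediol (1.70) and less with 1-Naphthol (0.51). All of these genes stand near 0 with Naphthalene. Aldh3a1 was dim with DMSO, so the size of its change is uncertain.

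The genes with a profile nearest to that of Gstp1 over the 15 arrays, each taken relative to its DMSO mean, were Hspb1, a small heat shock protein (root mean square difference 0.23 on the log2 scale), Nqo1 (0.33) and Akr1b8 (0.34). Hspb1 changed by 2.62 ± 0.0996 with 1,5-Naphthalenediol and 0.71 with 1-Naphthol (adjusted p = 1.2e-08 and 0.0016), and its 0.19 with 2,7-Naphthalenediol did not pass (adjusted p = 0.22). Nearest to Gsta2 were Aass, an enzyme of lysine breakdown (0.18), Cdca7 (0.20) and Enpep, an aminopeptidase (0.22). Aass rose by 0.95 with 1,5-Naphthalenediol and 0.65 with 1-Naphthol (adjusted p = 4.6e-05 and 0.0017), and Enpep by 1.15 and 0.39 (adjusted p = 6.7e-07 and 0.0032). Cdca7 was well above background on no DMSO array and on 8 of 15 arrays in all. Its measured signal rose 2.09-fold with 1,5-Naphthalenediol (limma adjusted p = 0.0004). That fold is an estimate over a DMSO signal that was not well above background, so its size is uncertain. Likeness of profile is a description over these arrays, which share their controls.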

How the data were processed

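RNA of 15 samples, 3 for each of 5 conditions, was labelled with Cy3 and hybridised to one-colour Agilent arrays, per the labels' protocols. The deposited intensity per spot comes from Agilent's Feature Extraction program, version 10.7.1.1, per the file headers, with background subtracted and no normalization between arrays. The headers name build rn4, so only names were taken from the GRCr8 table of genes, where each member matched. Control spots and outlier spots were left out (250 to 354 gene spots an array). Log2 intensity minus the array's 75th percentile was used, spots of a probe were averaged, and a probe was kept when well above background on all 3 arrays of a group. Of 23562 such probes, 7 with a missing value were dropped, and the brightest per gene left 19803 genes. One-way models were fitted with limma 3.58.1 under R 4.3.3 (data.table, version 1.17.8): 1 model of 5 group means over all 15 arrays, 10 comparisons, Benjamini-Hochberg adjusted p under 0.05 within each and 95% intervals. P-values measure the spread between arrays, and "rose", "fell" and "called" mean past that threshold.

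The fit was tested on simulated arrays. Alternatives were quantile normalization, normexp on median signals (the mean signals were not used here), no filter, other probe choices, the slide as a block or alone, the replicate number as a block, the 2 groups compared only, and each array left out. The second-probe and median-signal settings were chosen after the data were seen. The replicate numbers were not taken to pair the arrays: 2 of 30 same-number pairs had residuals that correlated above 0.1. All members were named in every comparison, up to 4 genes of each pathway list by smallest F test p (some listed genes count but are not reported here), and the 3 nearest profiles for members whose group means span at least 1 on the log2 scale. The members and lists were chosen with earlier results of these data known.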

Additional observations from a re-analysis of the deposited data

How the results depend on the processing

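Of the 100 values for a member in a comparison 37 were called, and 18 of these kept the call in every setting run. None reversed. Other values became calls, 4 of 100 with quantile normalization, 3 with normexp and 2 with the replicate number as a block. The mean of probes, the second probe and the slide as a block each added 1. Leaving out 1 array added 4 in 600 values. Each call of Gstp1 against DMSO was kept in every setting. The number of members called changed as follows. With the slide as a block it was 2 for 1-Naphthol against DMSO (5 in the group means model), 0 for Naphthalene against DMSO (from 2), 1 for 2,7-Naphthalenediol against 1-Naphthol (from 4) and 0 for 2,7-Naphthalenediol against Naphthalene (from 1). With only the 2 groups compared it was 1 for 1,5-Naphthalenediol against 1-Naphthol (from 2), 3 for 1,5-Naphthalenediol against Naphthalene (from 6) and 0 for Naphthalene against DMSO. Slide 2 alone leaves 1 array of 1,5-Naphthalenediol, so counts with that compound are not given for it. With only the 2 groups compared, or only slide 2, the number was 3 for 1-Naphthol against Naphthalene (from 6). With no filter on dim probes, which adds genes to the adjustment, it was 3 for 1-Naphthol against Naphthalene, 1 for 2,7-Naphthalenediol against DMSO (from 2) and 1 for Naphthalene against DMSO. With normexp it was 1 for Naphthalene against DMSO. The second probe gave 3 for 1-Naphthol against DMSO and 2 for 2,7-Naphthalenediol against Naphthalene, as did the mean of probes for the latter. With 1 array left out the range was 3 to 4 for 1-Naphthol against Naphthalene, 1 to 3 for 2,7-Naphthalenediol against DMSO, 1 to 2 for 2,7-Naphthalenediol against Naphthalene and 1 to 2 for Naphthalene against DMSO. The shares of all genes beside these slide block counts are given above. For the other settings such shares were not counted. The counts there therefore cannot set the members apart from all genes. The cause of these shifts was not tested.

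With the replicate number as a block (no pairing was taken from it) the counts moved by at most 1.5 times, to 4 for 1-Naphthol against Naphthalene (from 6), 7 for 1,5-Naphthalenediol against Naphthalene and 3 for 1,5-Naphthalenediol against 1-Naphthol. By residual correlation 5 of 15 arrays were closest to one of the same number, so the numbers were not taken as pairs.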
